A study of Mus musculus with 32 samples.

Results

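The genes described here form a pulse: 73 genes whose transcripts were most abundant 2 h after GATA6 induction in mouse ES cells and were again much lower at 96 h. They were chosen by these expression values themselves, so the peak at 2 h is a description and not a finding. In the deposited table, on a variance-stabilized log2 scale, a gene was kept if it had a symbol, if its highest mean of 4 samples was at 2 h and was at least 6, and if that mean exceeded the means at 0 h and at 96 h by at least 1.5 each. Of 54233 rows, 25093 had a symbol and 83 of these met all conditions on the values. The families of EGR, FOS, JUN, DUSP, SPRY, SPRED and ETV genes, which are the classical early targets of MAP kinase signalling, were then left out by name, which removed 10 genes (Fosb, Spred3, Dusp6, Fos, Egr3, Spry2, Dusp1, Egr1, Fosl1 and Dusp5) and left the 73.

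All samples were bulk RNA-seq libraries of the KH2 ES cell line (C57BL/6 by its label) carrying 1 transgene, TRE:GATA6-DSREd2, in which a TET-responsive element read in both directions drives tagged GATA6 and the fluorescent protein DsRed2. The 0 h samples were grown without Dox in the 2i + LIF medium, which holds PD0325901, an inhibitor of MEK, and CHIR, an inhibitor of GSK3. Every later sample came from cells moved to serum medium with LIF and Dox at 1 µg/mL. The samples at 2, 4 and 8 h had Dox throughout, and those from 16 h on had it for 12 h and then serum medium without it, so the comparison of 16 h with 8 h spans the withdrawal. There were 8 time points (0, 2, 4, 8, 16, 24, 48 and 96 h) with 4 replicates each, 32 samples in all. Dox, serum and the release from both inhibitors therefore began together, and their parts in any difference from 0 h cannot be told apart. All cells descend from 1 engineered line.

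Cells that meet growth factors transcribe a first wave of genes within minutes, without new protein synthesis. The products are largely transcription factors, and a second, delayed early wave follows that includes ligands, receptors and many inhibitors of the pathway that set it off. Transcripts of both waves are often short-lived, and AU-rich elements in their 3′ UTRs are known to speed their decay. In mouse ES cells, signalling from FGF through MEK and ERK favours the exit from naive pluripotency and the primitive endoderm (PrE) fate, and an inhibitor of MEK keeps it silent.

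Each sample held between 3190108 and 12301732 reads on genes. The replicates fell into 2 sets. Between samples of the same time point, the chi-square per degree of freedom had a median of 1.53 within replicates 1 and 2 or within replicates 3 and 4, and of 10.3 between these sets. The study states in general terms that its replicates were done independently, but no label says which samples were separate cultures, so p-values measure the spread between these samples, which may in part be technical. The transgene row had no read in any 0 h sample and a mean normalized count of 618 ± 110 (SD, n = 4) at 2 h. The 6 markers of ES cells had a summed count of 34152 to 40053 at 0 h, 24527 to 25552 after 2 h and 2621 to 3349 after 96 h, and the 6 PrE markers summed to 40.1 to 70.9 at 0 h and to 41981 to 54018 after 96 h. Of 8 fibroblast markers, which would mark feeder cells, 2 passed the filter on low counts, and the 8 summed to between 21.8 and 237 in every sample. The 7 trophoblast markers summed to 168 to 1219. The 9 markers of the 2-cell-like state separated the replicate sets, with sums of 0 to 38.6 in replicates 1 and 2 and 59.8 to 191 in replicates 3 and 4 from 0 h to 48 h, and of at most 9.55 in any sample at 96 h. The part of these populations in the values below was not tested, and in bulk RNA fewer cells of a type and less RNA per cell cannot be told apart.

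Levels are in normalized counts: whole reads over the size factor that the authors estimated for each sample. At 2 h the mean normalized counts of the 73 genes had a median of 281, and the lowest was 63.9 (Klk11). Plec (ENSMUSG00000022565, chr15:76170974-76232574, reverse strand; gene positions are from GENCODE M21 on GRCm38), which encodes the cytoskeletal linker plectin, had counts of 701, 873, 664 and 625 at 0 h, 4851, 5003, 6061 and 5770.1 after 2 h and 2216, 2154, 3633 and 4317 after 4 h. Its counts were 1509, 1359.8, 1842 and 1723 after 8 h, 812, 943, 1002 and 963 after 16 h, 394, 563, 634 and 661 after 24 h, 358, 396, 728 and 697 after 48 h and 826, 767, 1215 and 1243 after 96 h. At 24 h 2 samples lay below the range at 0 h and 2 within it, and at 96 h 2 lay within it and 2 above. Cavin1 (ENSMUSG00000004044, chr11:100956733-100970887, reverse strand), a coat protein of caveolae, kept going down. It had counts of 736, 658, 359 and 374 at 0 h, 4345, 4389.9, 4076 and 4015 after 2 h, 2866, 2772, 2772 and 2974 after 4 h and 1072, 958, 849 and 922 after 8 h. Later counts were 300.1, 302, 216 and 232 after 16 h, 147, 158, 142 and 109 after 24 h, 70.7, 64.1, 45.7 and 44.4 after 48 h and 46.7, 36.8, 26.4 and 31.2 after 96 h. Sfn (ENSMUSG00000047281, chr4:133600556-133602168, reverse strand), an adaptor protein of epithelial cells, had counts of 501, 431, 334 and 383 at 0 h, 3118, 3036, 2788 and 2592 after 2 h, 1749.7, 1698, 1713 and 1934 after 4 h and 914.5, 827, 813.5 and 767 after 8 h. It went on to 318, 319, 198 and 207 after 16 h, 121, 95.8, 85.3 and 79.1 after 24 h, 76.3, 69.7, 44.0 and 47.5 after 48 h and 100.8, 83.1, 67.8 and 74.7 after 96 h. Every sample from 16 h on was below every sample at 0 h. Levels of different genes can be compared only per length. Per kb of exons at 2 h, Sfn had 1788 normalized counts, Cavin1 1173 and Nppb 1069, against a median of 91.8 over the 73 genes.

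The largest differences between 0 h and 2 h in the deposited value belonged to Rrad, Nppb and Phlda1, with mean normalized counts of 1.16, 14.7 and 20.6 at 0 h. Rrad (ENSMUSG00000031880, chr8:104628070-104631327, reverse strand), a small GTPase of the RGK family that restrains voltage-gated calcium channels, differed by 5.62. Rrad had 1, 2, 0 and 1 reads at 0 h, so no fold is given. Its normalized counts were 1.38, 1.36, 0 and 1.89 at 0 h, 230, 232, 265 and 245 after 2 h, 21.8, 26.7, 28.9 and 32.9 after 4 h and 9.43, 4.46, 17.1 and 9.88 after 8 h. They were 8.70, 0, 3.99 and 9.49 after 16 h, 2.40, 7.51, 8.12 and 8.15 after 24 h, 7.54, 5.65, 18.5 and 11.4 after 48 h and 19.1, 18.9, 25.1 and 25.5 after 96 h. By 4 h, 10.9% of the excess over 0 h was left.

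Nppb (ENSMUSG00000029019, chr4:147985788-147987205, forward strand), the precursor of B-type natriuretic peptide, differed by 5.44 in the deposited value. Its counts were 24.8, 15.0, 9.67 and 9.44 at 0 h, 918, 862, 793 and 767 after 2 h, 407, 313, 582 and 634 after 4 h and 245, 282, 229 and 230 after 8 h. It reached 58.3, 47.3, 57.9 and 55.2 after 16 h, 27.6, 18.8, 20.3 and 18.8 after 24 h, 17.0, 22.6, 25.5 and 23.7 after 48 h and 125, 124, 168 and 170 after 96 h. All 4 samples at 96 h were above all samples at 0, 16, 24 and 48 h. Phlda1 (ENSMUSG00000020205, chr10:111506286-111508645, forward strand), a target of ERK signalling with a pleckstrin homology-like domain, differed by 5.34 and decayed more slowly. Its counts were 24.8, 22.4, 10.5 and 24.6 at 0 h, 1002, 951, 1047 and 1078 after 2 h, 557, 555, 742 and 796 after 4 h and 462, 479, 593 and 547 after 8 h. They were 282, 295, 332 and 296 after 16 h, 258, 271, 297 and 272 after 24 h, 209, 190, 185 and 191 after 48 h and 95.5, 133, 216 and 204 after 96 h, so that no later sample came back to the range at 0 h.

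**Figure D1:**
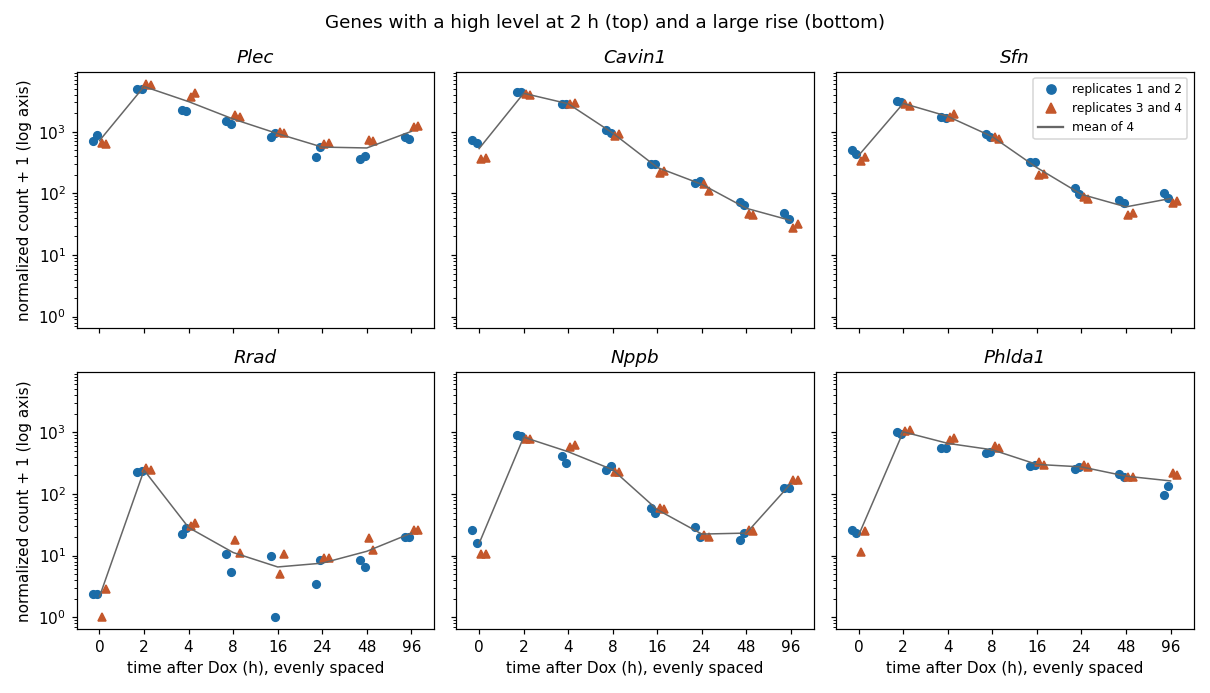
Normalized count plus 1 (log axis) of 6 genes in each of the 32 samples, against time after Dox (h, evenly spaced). Circles are replicates 1 and 2, triangles replicates 3 and 4, and lines join the means of 4 samples. All 6 genes peaked at 2 h, Cavin1 went on down to 96 h, and Rrad and Nppb were higher at 96 h than at 24 h.

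Over the 73 genes the difference between 2 h and 0 h in the deposited value ran from 1.503 (Gm10416) to 5.62, with a median of 2.63, and no gene had a 2 h sample within its 0 h range. With the threshold used in the study (FDR below 0.1 and a change of 4-fold or more), 57 of the 73 were called higher at 2 h than at 0 h, and 2.0% of the 15227 tested genes were. The rule used this contrast, so nothing is read from that count or from the lack of overlap. For the overlap, no share of all tested genes is given. All 73 passed the filter on low counts (4 or more samples with a normalized count of 10 or above), and all 73 did so without the 2 h samples as well. Of the genes, 70 are protein-coding and 3 (Gm10416, 4930444M15Rik and 1700071M16Rik) are not.

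Promoter sequences were at hand for 48 of the 73 genes, as windows from 250 bases before to 50 bases after each annotated start (RefSeq, GRCm38.p6). They were searched for 4 motifs that bind factors of the early response or GATA factors. The stretches that hold the cyclic AMP response element TGACGTCA are shown because it is a known control element of immediate early genes. Capitals mark the motif, and the sequence reads along the strand of the gene, both of which lie on the forward strand.
Errfi1 (chr4:150854999-150855046, from 51 bases before the start): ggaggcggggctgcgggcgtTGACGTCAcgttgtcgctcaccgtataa
Maff (chr15:79347471-79347518, from 29 bases before the start): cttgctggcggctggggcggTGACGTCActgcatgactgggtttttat

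Of the 48 genes with a window, these 2 (4.17%) held this element, as did 3.61% of 10433 other tested genes and 2.03% of all 27025 genes of the promoter table. The AP-1 site TGANTCA, bound by dimers of FOS and JUN proteins, was found in 9 of 48 (18.8%), against 5.94% of other tested genes and 8.97% of all genes. The site nearest to a start, in Tmcc3, is printed with those of 4 other genes as examples. The Tmcc3 site also lies 33 bases after another annotated start of that gene.
Emp1 (chr6:135362766-135362812, forward strand, from 145 bases before the start): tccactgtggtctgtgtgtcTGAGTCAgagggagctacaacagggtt
Emp1 (chr6:135362886-135362932, forward strand, from 25 bases before the start): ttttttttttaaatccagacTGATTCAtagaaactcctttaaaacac
Fam107b (chr2:3713402-3713448, forward strand, from 36 bases before the start): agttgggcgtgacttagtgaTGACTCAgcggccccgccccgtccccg
Nfkbie (chr17:45555524-45555570, forward strand, from 156 bases before the start): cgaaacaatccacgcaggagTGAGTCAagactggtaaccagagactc
Tmcc3 (chr10:94550885-94550931, forward strand, from 15 bases before the start): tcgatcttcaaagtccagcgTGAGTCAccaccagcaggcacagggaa
Trpv3 (chr11:73267419-73267465, forward strand, from 81 bases before the start): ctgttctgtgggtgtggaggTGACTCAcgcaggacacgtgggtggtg

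The other 4 genes with an AP-1 site were Gbp2, P2rx7, Sgms2 and Tpbg. The GATA site AGATAA, on either strand, was found in 11 of 48 (22.9%), namely Dnah17, Errfi1, Il6ra, Klk7, Maff, Nppb, P2rx7, Sec14l5, Tmc8, Tmcc3 and Tpbg, against 7.67% of other tested genes and 12.7% of all genes. Klk7 and Sec14l5 are shown because they had the lowest means of these genes at 0 h, and Nppb because its values are described above.
Klk7 (chr7:43811303-43811343, forward strand, from 29 bases after the start): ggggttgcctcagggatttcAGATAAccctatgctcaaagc
Nppb (chr4:147985796-147985841, forward strand, from 84 bases before the start): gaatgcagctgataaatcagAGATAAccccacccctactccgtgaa
Sec14l5 (chr16:5146887-5146932, forward strand, from 202 bases before the start): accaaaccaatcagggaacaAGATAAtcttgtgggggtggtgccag

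No window of the 48 held a CArG box, the element bound by SRF, as spelled by its consensus of CC, 6 bases of A or T, and GG, while 1.57% of other tested genes did. The 48 genes had 1.48 windows each and other tested genes 1.28. Counted per window, the AP-1 site was in 15.5% of 71 windows against 4.92% of 13319, and the GATA site in 15.5% against 6.4%. Windows can overlap, and the AP-1 site of Tmcc3 was counted in more than 1 of them. A match is only a run of letters, and 25 of the 73 genes had no window.

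**Figure D2:**
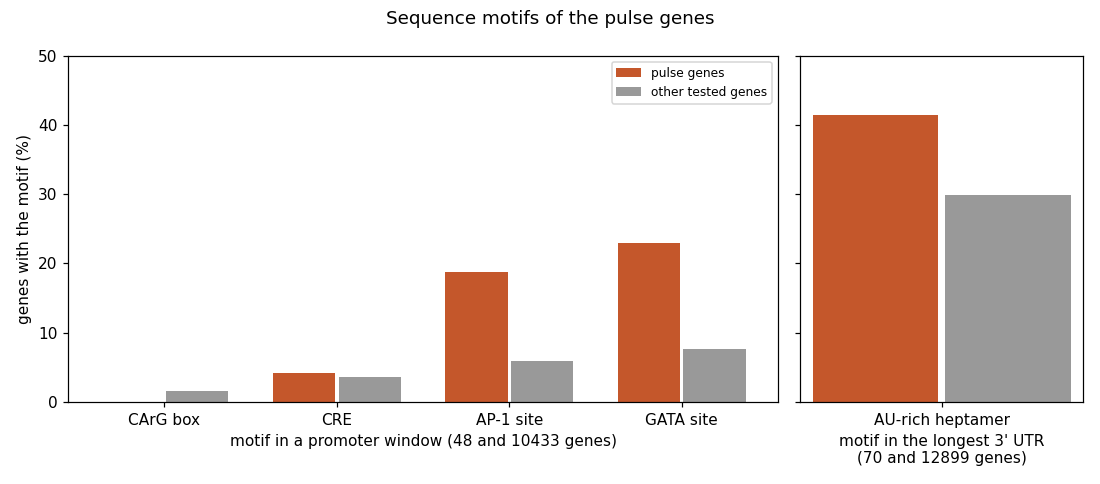
Share of genes (%) with each motif in a promoter window (left; 48 pulse genes and 10433 other tested genes) and with the AU-rich heptamer in the longest 3′ UTR (right; 70 and 12899 genes). The AP-1 site was in 18.8% and 5.94%, the GATA site in 22.9% and 7.67%, and the heptamer in 41.4% and 29.9%.

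The pulse genes were somewhat compact. The 70 protein-coding ones spanned a median of 17.1 kb and held 3.86 kb of exons, with 7 exons in the transcript with most, against 24.3 kb, 4.46 kb and 9 exons in 12960 other tested protein-coding genes. Their longest 3′ UTR had a median of 1258 nt, against 1347 nt. The AU-rich heptamer TATTTAT, a core of the elements that speed mRNA decay, was found in the 3′ UTR of 29 of 70 genes (41.4%), at 0.489 per kb, whereas 29.9% of 12899 other genes held it, at 0.263 per kb. Among genes whose 3′ UTR length lay in the middle 50% of that of the pulse genes, the shares were 44.1% of 34 and 25.8% of 5352. These shares are descriptions with no test.

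Among the transcription factors and their partners (13 genes), the corepressors Nab1 and Nab2, which bind EGR proteins and dampen their activity, had like means at 0 h but differed in how they came down. Nab2 had mean normalized counts of 63.0 ± 2.34 (SD, n = 4 here and below) at 0 h, 1408 ± 122 after 2 h and 210 ± 48.9 after 4 h, followed by 174, 105, 65.6, 57.5 and 56.0 at 8, 16, 24, 48 and 96 h. Nab1 had 67.3 ± 3.58 at 0 h and 1071 ± 55.3 after 2 h but still 625 ± 41.9 after 4 h and then 496, 339, 201, 122 and 258. At 4 h Nab2 had thus kept 10.9% of its excess and Nab1 55.5%.

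The nuclear receptor Nr4a1 was at 311 ± 14.3 at 0 h, 1118 ± 209 after 2 h and 579 ± 127 after 4 h, with later means of 493, 446, 188, 111 and 159. Skil, a corepressor of SMAD proteins, was at 208 ± 25.8 at 0 h and 1316 ± 113 after 2 h, and its means of 770.0, 815, 932 and 759 at 4, 8, 16 and 24 h formed a plateau before 463 after 48 h and 418 after 96 h. Snai3, a repressor of the Snail family, went from 21.6 ± 10.5 at 0 h to 530.0 ± 11.4 after 2 h, and was at 274, 90.1, 62.3, 7.98, 10.6 and 5.32 from 4 h to 96 h. The small MAF protein Maff was at 20.9 ± 14.2 at 0 h, 337 ± 44.2 after 2 h and 129, 83.3, 64.4, 52.5, 95.9 and 88.2 afterwards. Other members of this group were Twist1 and Msc, of the basic helix-loop-helix class, the POU factor Pou4f2, the zinc finger proteins Hivep1, Bcl6b and Zfp819, and Sertad4.

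Inhibitors and adaptors of signalling made up the largest group (16 genes). Errfi1, which binds and blocks the EGF receptor and whose promoter is printed above, had means of 172 ± 26.3 at 0 h, 2118 ± 656 after 2 h and 788 ± 209 after 4 h, then 330, 289, 319, 223 and 273. The spread at 2 h followed the replicate sets, with mean deposited values of 10.6 in replicates 1 and 2 and 11.4 in replicates 3 and 4. Socs5, of a family that limits cytokine receptors, was at 101 ± 21.4 at 0 h, 926 ± 106 after 2 h and 334, 184, 102, 91.5, 66.7 and 119 later. Nfkbie, an inhibitor of NF-kappaB, was at 40.3 ± 2.82, 139 ± 27.1 and 69.4 ± 15.3 at 0, 2 and 4 h and at 50.5, 42.5, 29.2, 34.2 and 33.2 after that.

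The mean of the pseudokinase Trib1 stayed near its 2 h level up to 8 h, but the replicate sets differed. Replicates 1 and 2 had counts of 799 and 766 after 2 h, 633 and 657 after 4 h and 702 and 684 after 8 h. Replicates 3 and 4 had 1083 and 1071, 1051 and 1020, and 1165 and 1149 at these times. Trib1 had means of 159 ± 9.93 at 0 h, 930 ± 171 after 2 h, 840 ± 226 after 4 h, 925 ± 268 after 8 h and 735 ± 270 after 16 h, followed by 444, 236 and 159. Arc, a neuronal immediate early gene, behaved in the opposite way, with 154 ± 26.1 at 0 h, 1970.1 ± 228 after 2 h, 288 ± 38.7 after 4 h and 126, 139, 35.7, 17.1 and 15.0 from 8 h on. The polo-like kinase Plk3 was at 91.4 ± 14.7, 330 ± 35.3 and 216 ± 38.4 at 0, 2 and 4 h and at 215, 182, 97.5, 68.1 and 93.7 later. The group also held the kinase Mapk11, the phosphatases Ppm1j and Synj2, and Card10, a scaffold of NF-kappaB signalling.

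Of 10 ligands and other secreted proteins, Hbegf, a membrane-anchored ligand of the EGF receptor, had means of 84.9 ± 9.75 at 0 h, 1359 ± 171 after 2 h and 358 ± 156 after 4 h. Its later means were 197, 278, 210, 78.7 and 372, the last of them with an SD of 83.9. The secreted proteases Klk7 and Klk11, the protease inhibitor Spink10, Loxl4, Fgfbp1, Sema7a and Tnfsf9 completed this group.

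Receptors, channels and transporters counted 11 genes. Il6ra, the subunit that binds interleukin-6, was at 228 ± 39.7 at 0 h, 669 ± 101 after 2 h and 284 ± 42.7 after 4 h, and then at 71.5, 45.6, 39.3, 33.5 and 13.8, so that from 8 h on it was below its level at 0 h. The bradykinin receptor Bdkrb2 was at 10.5 ± 4.69, 123 ± 5.45 and 42.6 ± 24.7 at 0, 2 and 4 h. Among 5 enzymes, Ptgs2, the inducible cyclooxygenase of prostaglandin synthesis, was at 3.34 ± 1.56, 168 ± 32.6 and 69.2 ± 11.1 at 0, 2 and 4 h, at 49.4 at 8 h and at 4.60, 0.504, 1.42 and 0.864 later. Noct, a phosphatase with a daily rhythm in many tissues, was at 318 ± 24.6, 2433 ± 351 and 1832 ± 349 and then at 1001, 594, 494, 270.0 and 310.1.

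The speed of the return differed widely. The first time point at which the mean excess over 0 h was below 50% of that at 2 h was 4 h for 33 genes, 8 h for 31, 16 h for 6 (4930444M15Rik, Dnah17, Phlda1, Plk3, Psd and Twist1) and 24 h for 3 (Ppm1j, Skil and Trib1). At 4 h the share of the excess that was left had a median of 51.5% and ran from 4.21% in Dio3, which inactivates thyroid hormone, to 101% in Klk7, whose mean normalized count was 89.5 after 2 h and 90.5 after 4 h. On the deposited log scale Klk7 was still highest at 2 h. At 8 h the median was 19.7%, from -35.5% in Il6ra to 99.4% in Trib1. In replicates 1 and 2 alone, 42 genes were below 50% by 4 h, and in replicates 3 and 4 alone 26.

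Ppm1j had counts of 511, 506, 342 and 297 after 2 h and of 296, 331, 285 and 237 after 16 h, and Trib1 had 799, 766, 1083 and 1071 after 2 h and 702, 684, 1165 and 1149 after 8 h. Skil had 1415, 1411, 1232 and 1206 after 2 h and 1091, 1004, 783 and 848 after 16 h. In all 3, every sample at the later time stayed above every sample at 0 h. By role, the median share left at 4 h ran from 40.1% in the 5 enzymes and 41.9% in the signalling group to 59.5% in receptors, channels and transporters and 64.2% in the 12 genes of other or uncertain role. The ranges of the roles overlapped.

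**Figure D3:**
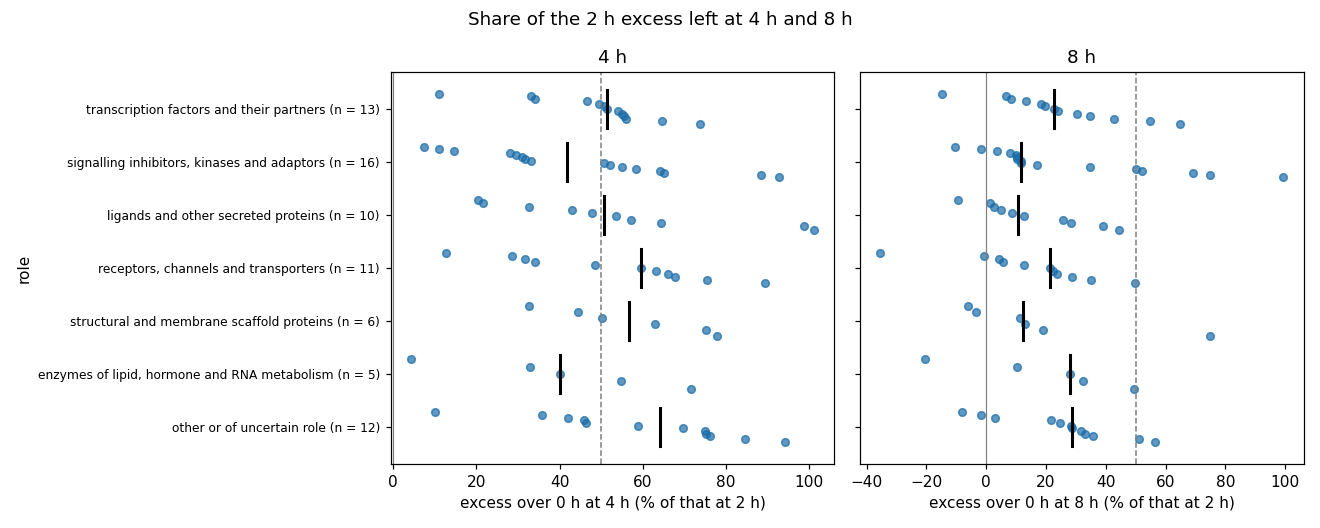
Excess of the mean normalized count over 0 h at 4 h (left) and 8 h (right), in % of the excess at 2 h. Each point is a gene, grouped by role, black bars are medians and the dashed line is 50%. The medians of the roles ran from 40.1% to 64.2% at 4 h, and at 4 h every role had genes on both sides of 50%.

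Whether the genes went on changing was tested in the 4 comparisons of neighbouring time points that hold no sample at 0, 2 or 96 h (limma with Benjamini-Hochberg adjustment over all 15227 tested genes). The rule put these genes high at 2 h and low at 96 h, so decreases somewhere in between are built in and increases are made less likely. It does not fix in which comparison a gene falls or rises. The shares of all tested genes are therefore given for scale, and neither many falls nor few rises are read as a finding. Neighbouring comparisons share the samples of 1 time point. Fewer genes passed when each replicate set was averaged to 1 sample, which left 2 samples per time point, and those counts are given beside the others. The shares of all tested genes belong to the fit of all 32 samples, and none is given for the set means or other alternatives.

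From 4 h to 8 h, 45 of 73 genes (61.6%) fell at FDR below 0.1, where 7.57% of all tested genes did, and 19 fell with the set means. The median log2 fold change of the 73 was -0.88, against 0.01 for all tested genes. By 4-fold or more, 4 fell (0.25% of all tested genes), and 7 without replicate 2 or with limma-voom. With a filter on a mean of at least 50, which takes genes with low counts out of the test, none did. Dio3 had normalized counts of 28.7, 26.7, 72.96 and 95.4 after 4 h and 1.57, 1.79, 6.999 and 10.6 after 8 h. Replicates 3 and 4 were above replicates 1 and 2 at both times, but each sample at 8 h was below each at 4 h, and the log2 fold change was -3.27 ± 0.70 (SE; adjusted p = 0.0014). With the set means it missed the threshold (adjusted p = 0.17). Spink10 had 52.4, 43.6, 18.4 and 20.8 after 4 h and 4.71, 7.14, 1.56 and 1.52 after 8 h (-2.93 ± 0.57, adjusted p = 0.00054). Klk7 had 42.5, 50.9, 128 and 140 after 4 h and 4.71, 10.7, 16.3 and 13.7 after 8 h (-2.81 ± 0.60, adjusted p = 0.0015). Sec14l5, of the family of lipid transfer proteins, had 10.9, 12.1, 19.2 and 16.5 after 4 h and 0, 0, 3.89 and 1.52 after 8 h (adjusted p = 0.00013), and with no sample over 5 reads at 8 h no fold is given. None of the 73 rose, by limma at FDR below 0.1 (9.51% of all tested genes) or by 4-fold (0.565%), nor did any at an unadjusted p below 0.05 or with limma-voom.

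From 8 h to 16 h, 36 genes fell (49.3%; 10.6% of all tested genes), 20 with the set means. The median log2 fold change was -0.68, against -0.01. By 4-fold or more, 9 fell (0.539% of all tested genes): Emp1, Gbp2, Klk7, Loxl4, Nppb, Ptgs2, Sgms2, Tmcc3 and Trpv3. With a pseudocount of 5, on the deposited values or with the filter on a mean of 50, 5 fell by that much. Ptgs2 had 37.7, 51.8, 46.7 and 61.6 after 8 h and 2.61, 4.89, 3.99 and 6.90 after 16 h (-3.21 ± 0.40, adjusted p = 9.1e-07). Gbp2, a GTPase induced by interferon, had 28.3, 25, 38.9 and 33.5 after 8 h and 2.61, 4.89, 5.33 and 1.73 after 16 h (-2.87 ± 0.46, adjusted p = 4.4e-05). Klk7 fell further, to 2 reads or fewer per sample at 16 h (adjusted p = 0.0016). Of the 73 genes, 1 rose at FDR below 0.1 (1.37%; 9.44% of all tested genes), and none did with the set means. By 4-fold none rose (0.499%), also at an unadjusted p below 0.05 or with limma-voom.

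From 16 h to 24 h, 40 genes fell (54.8%; 14.8% of all tested genes), 18 with the set means, with a median log2 fold change of -0.63 against -0.01. The 4 that fell by 4-fold or more (0.729%) were Pou4f2, Snai3, Dnah17 and 1700071M16Rik, and 2 did with a pseudocount of 5 or the filter on a mean of 50. Snai3 had 42.6, 68.4, 75.2 and 63.0 after 16 h and 8.41, 12.5, 2.03 and 8.97 after 24 h (-2.98 ± 0.33, adjusted p = 1e-07). Dnah17, a heavy chain of axonemal dynein, had 93.9, 81.5, 163 and 153 after 16 h and 14.4, 23.8, 20.3 and 23.7 after 24 h (-2.49 ± 0.37, adjusted p = 9.3e-06). Pou4f2 had 26.1, 32.6, 8.65 and 13.8 at 16 h and 3 reads or fewer per sample at 24 h (adjusted p = 2.2e-05). 1700071M16Rik had 3.48, 8.96, 12.0 and 7.77 at 16 h and at most 3 reads at 24 h (adjusted p = 0.00016). Tmcc3 rose by 1.09 ± 0.26, from 8.70, 13.9, 13.3 and 11.2 to 25.2, 26.3, 24.4 and 27.7 (adjusted p = 0.0026). Sec14l5 passed as well, but on 2, 0, 4 and 0 reads at 16 h against 2, 4, 3 and 4 at 24 h (adjusted p = 0.076), and it did not pass without replicate 2 or without replicate 4 (adjusted p = 0.25 and 0.31). At FDR below 0.1, 13.3% of all tested genes rose, and by 4-fold 0.525% did and none of the 73, also at an unadjusted p below 0.05 or with limma-voom.

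From 24 h to 48 h, 39 genes fell (53.4%; 27.8% of all tested genes), 30 with the set means, with a median log2 fold change of -0.57 against 0.00. By 4-fold or more, 4 fell (1.41%), and none did on the deposited values or with a pseudocount of 5, which pull in the changes of genes with low counts. Emp1, an epithelial membrane protein, had 55.3, 49.4, 83.3 and 68.5 after 24 h and 17.0, 7.54, 14.1 and 13.4 after 48 h (-2.24 ± 0.34, adjusted p = 2.7e-06). Zfp819 had 87.7, 78.2, 75.1 and 67.7 after 24 h and 13.2, 18.8, 17.6 and 14.5 after 48 h (-2.21 ± 0.11, adjusted p = 2.3e-15). Dnah17 fell again, to 7.54, 5.65, 5.28 and 1.03 (-2.03 ± 0.37, adjusted p = 3.2e-05). Klk11 had 20.4, 17.5, 4.06 and 6.52 at 24 h and 2 reads or fewer per sample at 48 h (adjusted p = 0.00011).

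Between 24 h and 48 h, 4 genes rose at FDR below 0.1 (5.48%; 29.8% of all tested genes), 7 without replicate 2 and 1 with the set means. Twist1 had 39.6, 38.8, 42.7 and 43.2 after 24 h and 78.2, 62.2, 45.7 and 52.6 after 48 h, with no overlap (0.50 ± 0.17, adjusted p = 0.013). Maff had 64.9, 62.0, 44.7 and 38.3 after 24 h and 136, 113, 66.9 and 68.1 after 48 h (0.82 ± 0.32, adjusted p = 0.030). The replicate sets differed at both times, and within each set both 48 h samples were above both 24 h samples. Without replicate 1, both Twist1 and Maff missed the threshold (adjusted p = 0.12 each), and Maff did so with the set means (adjusted p = 0.18). Dio3 had 2 reads or fewer per sample at 24 h and normalized counts of 4.71, 3.77, 9.68 and 7.22 at 48 h (adjusted p = 0.025), but it missed the threshold with a pseudocount of 5, limma-voom or the set means (adjusted p = 0.14, 0.21 and 0.20). Klk7 had at most 1 read at 24 h and 3, 0, 4 and 7 reads at 48 h (adjusted p = 0.074), a call lost under 10 of 14 alternatives. None of the 73 rose by 4-fold with an FDR below 0.1 (2.51% of all tested genes), also at an unadjusted p below 0.05 or with limma-voom.

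**Figure D4:**
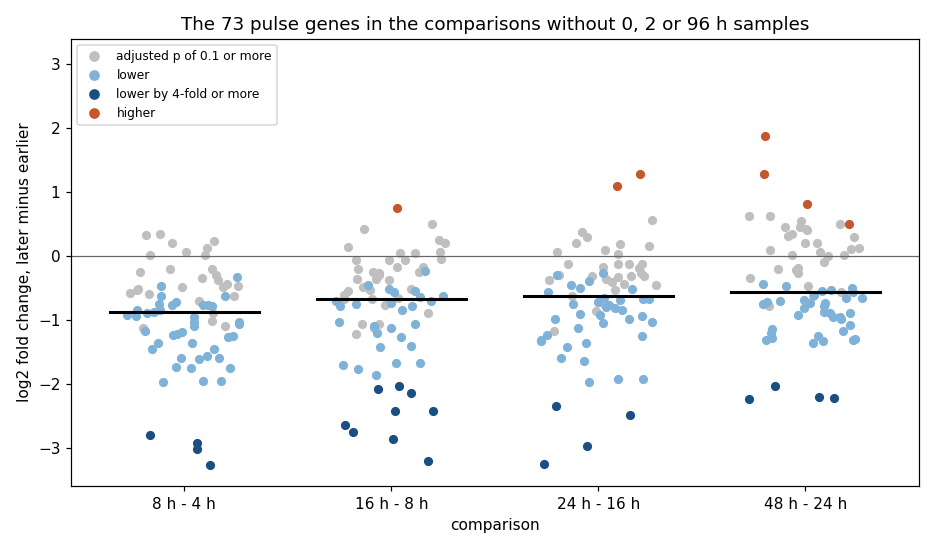
Log2 fold change of each of the 73 genes (points) in the 4 tested comparisons of neighbouring time points, later minus earlier. Black bars are the medians (-0.88, -0.68, -0.63 and -0.57), dark blue points fell by 4-fold or more, light blue points fell by less, and orange points rose (0, 1, 2 and 4 genes).

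Counted over these 4 comparisons, 12 genes fell in each of them: 4930444M15Rik, Cavin1, Emp1, Fam107b, Gprc5a, Loxl4, Nab1, Noct, Sfn, Smim3, Trim16 and Zfp819. A further 13 fell in 3, 28 in 2 and 17 in 1. The rule builds falls in, and the same counts over all tested genes are not given, so these are descriptions only. For 3 genes, Fgfbp1, Maff and Tnfsf9, no fall passed the threshold, which does not mean that their levels were steady. Maff had 114, 153, 128 and 120 after 4 h and 101, 80.4, 76.2 and 76.0 after 8 h, with no overlap (adjusted p = 0.23). For Tnfsf9, the ligand of an activating receptor of T cells, the means were 24.4, 15.9, 9.44, 3.93 and 6.35 from 4 h to 48 h. Fgfbp1, which releases FGF from the matrix, had 129, 61.4, 77.8, 65.6 and 42.7.

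The genes did not settle at a common level. The lowest mean after 2 h came at 8 h in 1 gene (Ppl, a plakin of cell junctions), at 16 h in 5 (Card10, Rrad, Sec14l5, Soga3 and Tmcc3), at 24 h in 15, at 48 h in 28 and at 96 h in 24. Ppl had 22.0, 14.3, 14.8 and 13.7 after 8 h, and Card10 had 83.5, 100.2, 71.2 and 111 after 16 h and 121, 120, 132 and 130 after 96 h. Soga3 had 30.4, 31.0, 16.6 and 25.03 after 16 h and 31.8, 43.1, 54.0 and 48.2 after 96 h. The mean at 8 h was above that at 0 h in 62 of 73 genes, at 24 h in 29, at 48 h in 20 and at 96 h in 30. Compared on the deposited scale, the mean at 96 h was within 1 of that at 0 h in 39 genes, over 1 below it in 22 and over 1 above it in 12 (Card10, Hbegf, Klk7, Maff, Nab1, Nppb, Phlda1, Rrad, Sertad4, Sgms2, Tmcc3 and Twist1). The widest gaps were -5.42 in Emp1, with counts of 375, 345, 662 and 672 at 0 h and 12.7, 7.36, 2.51 and 5.67 after 96 h, and 2.97 in Nppb. The rule bounds the level at 96 h from above, so these are descriptions. At 96 h 4 genes (Ptgs2, Pou4f2, 1700071M16Rik and Spink10) had at most 3 reads in every sample.

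**Figure D5:**
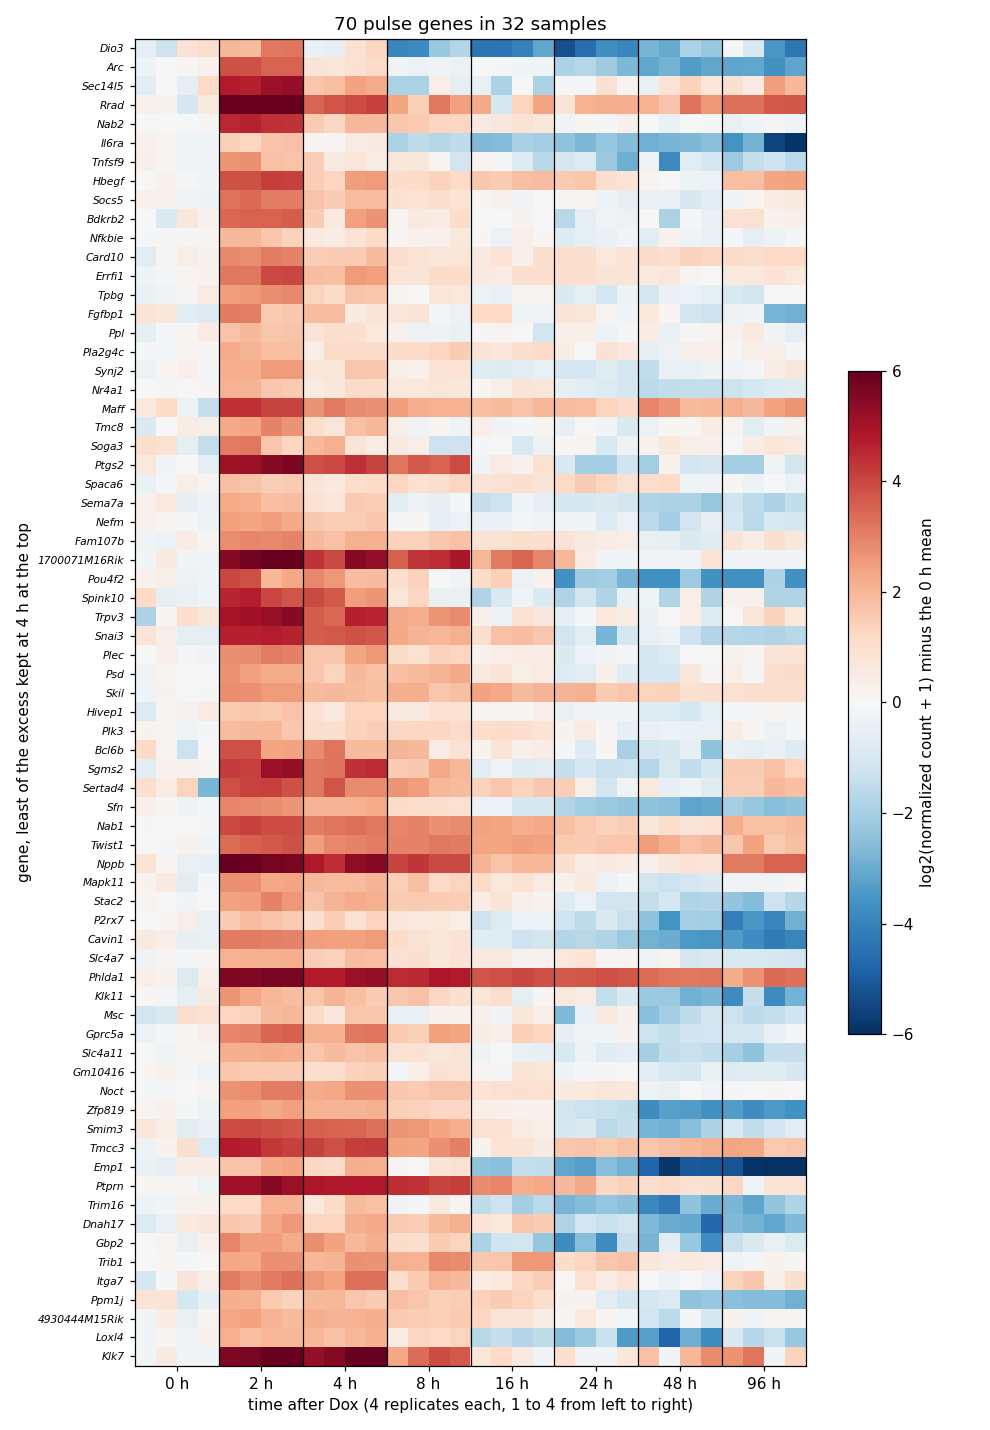
log2(normalized count + 1) of 70 of the 73 genes (rows) in the 32 samples (columns, 4 per time point), minus the mean at 0 h; colours stop at -6 and 6. Rows run from the gene with the least of its excess left at 4 h (Dio3, 4.21%) to the one with the most (Klk7, 101%), and blue at 48 h and 96 h marks genes below their level at 0 h, such as Emp1 and Cavin1.

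Other genes of related pathways were counted for comparison at 2 h against 0 h, where 22.2% of all tested genes were higher and 22.6% lower at FDR below 0.1. Of the 25093 rows with a symbol, whether or not they passed the filter, 2657 had their highest mean at 2 h. Of 38 listed immediate early genes outside the families left out, 37 passed the filter and 11 were among the 73 (Arc, Errfi1, Maff, Nab1, Nab2, Noct, Nr4a1, Phlda1, Plk3, Ptgs2 and Trib1). Of the other 26, 11 were higher and 2 lower, and 2 were higher by 4-fold or more (Klf6 and Myc), with a median log2 fold change of 0.36. Csrnp1, Mcl1, Pim1 and Zfp36 also had their highest mean at 2 h but missed a threshold of the rule. Of the EGF family and its regulators, 11 of 16 were measured, Errfi1 and Hbegf were among the 73, and 4 of the other 9 were higher and 1 lower, with Nrg1 higher by 4-fold or more.

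None of the 23 cytoskeletal targets of SRF and its MRTF partners was among the 73. Even so, 18 of the 20 that were measured were higher at 2 h, 4 of them by 4-fold or more (Fhl2, Filip1l, Myl9 and Zyx), with a median log2 fold change of 1.10, and 1 of the 20 (Vcl) had its highest mean at 2 h. Likewise none of 18 YAP and TAZ targets was among the 73, and 11 of the 17 measured were higher and 2 lower, with Ctgf, Cyr61 and F3 higher by 4-fold or more and only Nuak2 peaking at 2 h. Of 17 TGF-beta and BMP response genes, all measured, 3 were among the 73, including Skil and Snai3, and of the other 14, 6 were higher (Id1 and Id2 by 4-fold or more) and 3 lower. Of these 14, Smad7, Snai2 and Tgif1 had their highest mean at 2 h.

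Of 17 NF-kappaB response genes, 13 were measured, Nfkbie and Ptgs2 were among the 73, and of the other 11, 6 were higher and 1 lower, with Tnfaip3 higher by 4-fold or more. Of these 11, Nfkb1 and Relb had their highest mean at 2 h. In the SOCS family Socs5 was 1 of 8, and of the other 7, 4 were higher (Cish by 4-fold or more) and 1 lower, while Socs2, Socs4, Socs6 and Socs7 also had their highest mean at 2 h. Of 15 p53 targets, Plk3 and Sfn were among the 73, and of the other 13, 4 were higher and 7 lower. None of 12 heat shock and stress response genes was among the 73, and of 11 measured, 3 were higher and 3 lower, with only Hsph1 peaking at 2 h. In the RGK and RND GTPases Rrad was 1 of 6 measured, and 4 of the other 5 were higher, Gem by 4-fold or more. Rnd1 and Rnd2 had their highest mean at 2 h.

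The genes were also looked up among the lineage genes that the study took from blastocysts. Of the 73 genes, 1 (Phlda1, 1.37%) is among its 579 PrE genes, where it makes up 0.173% of that list, and 1 (Sfn, 1.37%) among its 221 epiblast genes (0.452% of that list). Of all tested genes, 3.75% and 1.41% are on these lists.

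The rule was also applied to each replicate set alone. In replicates 1 and 2 it chose 80 genes. In replicates 3 and 4, which it had not used, all 80 were higher at 2 h than at 0 h and than at 96 h, 73 had their highest mean at 2 h, and 49 met every condition. The median excess over 0 h of these 80 genes was 2.34 in the set that chose them and 2.42 in the other. In replicates 3 and 4 the rule chose 68 genes, of which 66 peaked at 2 h in replicates 1 and 2, with a median excess of 2.60 in the own set and 2.5 in the other. With all replicates, 2657 of the 25093 rows with a symbol had their highest mean at 2 h. No label says that the sets were separate cultures, and both share the line and the change of medium. These counts are therefore descriptions and no independent test of the rule. Within the 73, the excess over 0 h differed most between the sets in Klk7, at 4.02 in replicates 1 and 2 and 5.43 in replicates 3 and 4, followed by Pou4f2 (3.31 and 2.07) and Msc (2.12 and 0.92). Pou4f2 had counts of 202, 183, 49.2 and 61.6 at 2 h.

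Genes close to the thresholds show where the rule drew its lines. For the mean at 2 h, Klk11 (6.10), Tnfsf9 (6.13) and Ppl (6.14) were just inside and Edn1 (5.99), Cyth4 (5.96) and Fam84a (5.96) just outside. For the excess over 0 h, Gm10416 (1.503), Spaca6 (1.51) and Msc (1.52) were inside and Rell1 (1.47), Zfp820 (1.45) and Zswim4 (1.44) outside. For the excess over 96 h, Ppl (1.53), Psd (1.58) and Spaca6 (1.63) were inside and Tent5c (1.49), Midn (1.46) and Shank3 (1.45) outside. Exons of Nefm share 19.2% of their length with Nefl and those of 1700071M16Rik 11.1% with Pla2g7, each on the opposite strand, and since no source here says whether reads were counted by strand, their levels are less certain.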

How the data were processed

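Poly(A)-selected RNA of 32 samples, grouped by the time points in their titles, was sequenced with a stranded kit. The authors trimmed reads with cutadapt 2.7, checked them with FastQC 0.11.8, aligned them to GRCm38.p6 with HISAT2 2.1.0, counted them per gene with featureCounts (Subread 1.6.4) and deposited log2 values of a variance stabilizing transformation (DESeq2). Whether counting used that strand is not given in the sources used here. The lowest value, 1.58, stands for no reads and fixes the transformation. Undoing it gave counts divided by size factors, and 100.0% of values were within 3.5e-09 of a whole number of reads.

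The 15227 genes that reached a normalized count of 10 in 4 or more samples were fitted by limma 3.58.1 (R 4.3.3) as log2(normalized count + 1) (trend, all 32 samples, two-sided, Benjamini-Hochberg adjustment per comparison), which understates changes of low genes. Calls used FDR < 0.1, with or without a log2 fold change of 2. The procedure was also run on simulated counts of independent samples. Those held no replicate sets, so that run cannot show how the sets affect the p-values here. Counting error is not the only error, since PCR copies were not marked. Same-numbered samples deviated together (correlations of 0.19 to 0.48 across genes in the 4 comparisons), but no more than samples of the same set (means 0.316 and 0.319). The members and lists were chosen with earlier results of these data known, and roles were assigned after values were seen. Any of the 73 genes could be named, but 3 are not reported by name here. Values per sample were given for the 3 most abundant of the genes reported, the 3 that rose most at 2 h, the 3 largest falls and rises called per comparison, and every count of 5 or fewer, and means for genes on a list. The lists of related pathways were fixed by name, and the AU-rich motif was added after the data were seen. Gene structures and 3′ UTRs came from GENCODE M21, a later release than that of the authors. Alternatives were other pseudocounts, filters, thresholds and scalings, limma-voom on whole reads, blocks for the replicate number or set, set means, and each replicate left out.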

Additional observations from a re-analysis of the deposited data

Results flagged for a closer look

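Among the genes given with their values in every sample, 157 groups of 4 samples were looked at, and in 4 of them 1 sample lay far from the other 3. The gap to the nearest sample, as a share of the whole range, was above Dixon's 95% critical value, which chance gives in about 1 of 20 groups. Rrad at 24 h had a normalized count of 2.40 in replicate 1 and 7.51 to 8.15 in the others. Phlda1 at 0 h had 10.5 in replicate 3 and 22.4 to 24.8 in the others. Spink10 at 0 h had 6.90 in replicate 1 and 1.36 to 1.89 in the others. Zfp819 at 2 h had 915 in replicate 3 and 1046 to 1069 in the others.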

How the results depend on the processing

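The rule gave 73 genes, 66 to 75 when 1 replicate was left out, 136 with an excess of 1 and 44 with an excess of 2 in place of 1.5. With the replicate number as a block, 50, 40, 43 and 40 genes fell in the comparisons from 8 h against 4 h to 48 h against 24 h, and these held all of the 45, 36, 40 and 39 genes called without it. The replicate block moved no count by over 1.5 times and lost no named call. Averaging each replicate set, an alternative chosen after seeing the data, left 19, 20, 18 and 30 genes that fell and 0, 1 and 1 that rose in the last 3 comparisons, with fewer samples in the fit. With the set as a block, also added later, 2 rose from 8 h to 16 h. Leaving out 1 replicate gave 4 to 7, 8 to 9, 3 to 5 and 3 to 4 genes that fell by 4-fold or more, 35 to 43, 29 to 35, 27 to 33 and 34 to 37 that fell at all, and 0, 1, 1 to 2 and 3 to 7 that rose.

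A filter on a mean of at least 50 removed genes from the test and left 0, 5 and 2 that fell by 4-fold or more up to 24 h, and 1 that rose from 16 h to 24 h. A pseudocount of 5 left 5, 2 and 0 from 8 h on and 1 that rose from 16 h to 24 h. The deposited values left 5 from 8 h to 16 h and 0 from 24 h to 48 h. With limma-voom on whole reads, 7 fell by 4-fold or more from 4 h to 8 h, and 1 and 2 rose in the last 2 comparisons. With no filter, or at an FDR of 0.05, 1 rose from 16 h to 24 h, and with only the samples of both time points 2 rose from 8 h to 16 h. The cause of these shifts was not tested, and no share of all tested genes is given for any alternative. No direction of a named gene reversed. The rises of Sec14l5 from 16 h to 24 h and of Klk7 from 24 h to 48 h, on few reads, missed the FDR threshold under 7 and 10 of 14 alternatives. Of the 21 calls named, 15 met the FDR threshold under all that were run. That count does not ask for a 4-fold change, a size that no fall from 24 h to 48 h kept with a pseudocount of 5 or on the deposited values. Depth, from 3190108 reads, limits the genes with few reads most.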

Other observations

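The limits on the values were also met by 7 rows to which the deposited table gives no symbol, and 6 of them have a name in a table of gene identifiers: Gm26582, Ywhaq-ps1, Gm45470, Gm2379, E130202H07Rik and 4833407H14Rik. On the deposited log2 scale 4833407H14Rik went from a mean of 3.99 at 0 h to 6.46 after 2 h, and was at 5.63 after 4 h and 4.89 after 8 h. Gm2379 had 6.46 after 2 h and 5.37 after 4 h but 6.32 after 16 h, near its first peak. Ywhaq-ps1 went from 4.53 to 6.36 between 0 h and 2 h, and its level is uncertain because a pseudogene shares sequence with its parent gene.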
